A study of Homo sapiens with 4 samples.

Results

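The 85 genes that encode the proteins of the cytosolic ribosome were examined for binding of TRIM24 and TRIM28 in LNCaP, a human prostate cancer line that responds to androgen. The genes were chosen by symbol from the 20098 protein-coding genes that GENCODE places on chromosomes 1 to 22 and X of GRCh37: RPL or RPS followed by a number, with the P-stalk genes, RPSA and paralogues with an L suffix, and without the RPS6K kinases. Of these, 53 encode large-subunit and 32 small-subunit proteins, and 8 are L-suffixed paralogues. They lie on 21 chromosomes, with 12 on chromosome 19. The ChIP-seq data comprise 4 libraries, 1 per condition, so no difference between conditions has a replicate check and no p-value is given. For TRIM24, LNCaP cells stably expressing HA-TRIM24 were used with an antibody against the HA tag. For TRIM28, the labels name LNCaP cells and an antibody against TRIM28, while a figure legend of the study names the HA-TRIM24 cells for both ChIPs. All 4 cultures are labelled wild type (WT), were kept for 3 days in medium with 5% charcoal-stripped serum, received either ethanol (the vehicle) or 10 nM R1881, a synthetic androgen, for 16 h, and were fixed with 1% formaldehyde. HA-TRIM24 was expressed in addition to the cells' own TRIM24, and no library without the tag and no expression data were analysed here, so the cell type was not checked against marker genes.

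A ribosome is built from a large and a small subunit, each a core of ribosomal RNA covered with proteins that are needed in near-equal amounts. Ribosomal protein genes are therefore among the most steadily transcribed genes of dividing cells. Most of their mRNAs begin with a cytosine followed by a run of pyrimidines, the 5′ terminal oligopyrimidine (5′TOP) tract, through which mTOR signalling sets their translation. TRIM24 (TIF1α) is a chromatin reader with a PHD finger and a bromodomain and acts as a coactivator of the androgen receptor. TRIM28 (KAP1, TIF1β) is best known as the corepressor recruited by KRAB zinc finger proteins, and it also occupies promoters of active genes.

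The transcription start sites (TSSs) of these genes share a sequence that the choice by symbol did not use. Below are the 30 bases around the canonical TSS (15 before it, 15 from it on, gene strand, GRCh37) of the genes on which the results turn, with the pyrimidine run that starts at the TSS in capitals.
RPLP1 (chr15:69745142-69745171, plus strand): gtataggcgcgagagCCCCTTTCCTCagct
RPL22L1 (chr3:170587970-170587999, minus strand): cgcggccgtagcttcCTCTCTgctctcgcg
RPS29 (chr14:50053084-50053113, minus strand): tgcgtgggccagcttCTTCCTTTTacctcg
RPS14 (chr5:149829288-149829317, minus strand): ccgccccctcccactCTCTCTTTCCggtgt
RPL37 (chr5:40835310-40835339, minus strand): tagcggaagtgccttCTCTTCCggtctttc
RPS6 (chr9:19380220-19380249, minus strand): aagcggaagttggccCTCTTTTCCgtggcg
RPL27 (chr17:41150421-41150450, plus strand): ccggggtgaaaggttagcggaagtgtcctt
RPL39 (chrX:118925579-118925608, minus strand): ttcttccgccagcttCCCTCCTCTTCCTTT
RPS18 (chr6:33239837-33239866, plus strand): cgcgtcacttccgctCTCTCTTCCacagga
The first 6 genes had among the strongest sites or a site in every library, and RPL39 and RPS18 had no site. RPL27 had the only TRIM28 ratio of R1881 to ethanol whose unadjusted interval left out 1, from 1 library per treatment. The tract was present in genes with and without sites, and RPL27 has none at its annotated start. The base at the TSS was a C in 64 of 85 ribosomal protein genes (75.3%) and in 10.7% of the 19819 protein-coding genes with a canonical transcript. A C followed by pyrimidines to a run of at least 5 was found in 59 (69.4%) against 4.6%. Among the genes with a TRIM24 site in R1881 it was found in 29 of 36 (80.6%), and among those without in 30 of 49 (61.2%). Of all protein-coding genes with such a site 5.2% had it, near the 4.6% of all genes, and the split was not tested.

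A gene was counted as having a site where the centre of a listed site lay within 2 kb of any of its annotated TSSs. The authors listed sites separately in each library, 5232 and 9363 for TRIM24 with ethanol and R1881 and 58201 and 34574 for TRIM28. The libraries held 11606880, 12884097, 25145171 and 14231181 tags in that order. Site strength is given below as the authors' normalized tag count, in tags per 10000000. The caller's minimum of 9, 9, 12 and 9 tags in that order corresponds to 7.75, 6.99, 4.77 and 6.32 normalized tags, and the counts given for listed sites go down to slightly lower values. A gene without a listed site was below detection at that depth, which is not the same as a level of 0. No input library entered the calling, so a site is an excess over the surrounding 10 kb, and what an input library would show at these promoters was not tested.

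Ribosomal protein genes had promoter sites of both proteins more often than protein-coding genes did as a whole. With ethanol, TRIM24 sites were found at 24 of the 85 genes (28.2%, Wilson 95% interval 19.8 to 38.6), against 10.6% of all protein-coding genes. With R1881 the count was 36 (42.4%, 32.4 to 53), against 18.5%. TRIM28 sites were found with ethanol at 72 genes (84.7%, 75.6 to 90.8), against 56.5%, and with R1881 at 46 genes (54.1%, 43.6 to 64.3), against 37.5%. In each library the share of all protein-coding genes lay below the interval of the ribosomal protein genes. The intervals here and throughout cover counting error only, since reads from PCR are not independent molecules and nothing measures the spread between cultures. The union of 2 kb windows had a median of 6041 bp per ribosomal protein gene and 8292 bp per protein-coding gene, and the median number of TSSs was 8 against 5. The part of window length and TSS number in these shares was not tested.

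**Figure D1:**
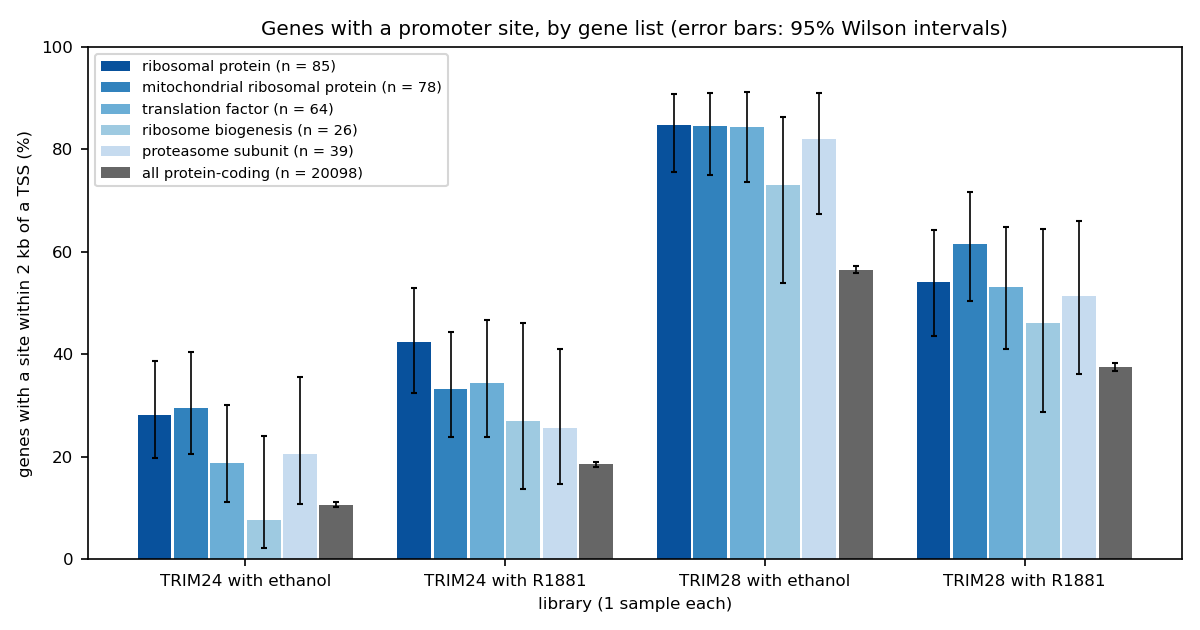
Share of genes with a site within 2 kb of a TSS (vertical axis, %) in each of the 4 libraries (horizontal axis), for ribosomal protein genes, 4 other lists of housekeeping genes and all protein-coding genes. Bars start at 0 and error bars are 95% Wilson intervals. The ribosomal protein bar stands above the bar of all protein-coding genes in each library, and its interval overlaps those of the 4 other lists.

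Other housekeeping lists were counted in the same way beside the shares of all protein-coding genes, 10.6% and 18.5% for TRIM24 and 56.5% and 37.5% for TRIM28 with ethanol and R1881. Mitochondrial ribosomal protein genes, whose products build the separate ribosome of mitochondria, had shares of 29.5% and 33.3% for TRIM24 with ethanol and R1881 and of 84.6% and 61.5% for TRIM28 (78 genes). Subunits of the proteasome, the protease that removes ubiquitin-tagged proteins, had 20.5%, 25.6%, 82.1% and 51.3% in the same order (39 genes). Translation factor genes, taken by symbol, had 18.8%, 34.4%, 84.4% and 53.1% (64 genes). Ribosome biogenesis genes, which serve the transcription and processing of ribosomal RNA, had 7.69%, 26.9%, 73.1% and 46.2% (26 genes). These shares were the lowest of the 5 lists except for TRIM24 with R1881. The biogenesis share was below that of all genes for TRIM24 with ethanol, and its intervals for the 4 libraries (2.14 to 24.1, 13.7 to 46.1, 53.9 to 86.3 and 28.8 to 64.5) included the shares of all genes. The proteasome intervals for TRIM24 with R1881 (14.6 to 41.1) and TRIM28 with R1881 (36.2 to 66.1) did so as well. The intervals of the ribosomal protein genes in each library overlapped those of each of the 4 lists, so these counts do not separate ribosomal protein genes from them. Within the ribosome, large-subunit and small-subunit genes had TRIM24 sites in 28.3% and 28.1% with ethanol and in 43.4% and 40.6% with R1881. The corresponding TRIM28 shares were 84.9% and 84.4%, and 50.9% and 59.4%.

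Taken over both treatments, 46 of the genes had a TRIM24 site (54.1%, against 23.2% of all protein-coding genes) and 72 a TRIM28 site (84.7%, against 59.4%). A site in all 4 libraries was listed for 9 genes (10.6%, against 4.92%), among them RPL29, RPL36, RPL37, RPL41, RPS3A, RPS6 and RPS29. A further 18 genes had TRIM28 sites in both treatments and no TRIM24 site (21.2%, against 18.4%), among them RPLP0, RPL15 and RPS24. In 11 genes, including RPSA, RPL11 and RPS19, the only site was a TRIM28 site with ethanol, the library with the most tags (12.9%, against 16.5%). Both shares are near those of all genes. RPL13A and RPL14 had a TRIM24 site with R1881 and no other. RPS2 had TRIM24 sites in both treatments, at 7.8 normalized tags each, and no TRIM28 site. Its TRIM24 sites did not overlap, with centres 1735 bp downstream of a TSS with ethanol and 17 bp downstream with R1881.

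**Figure D2:**
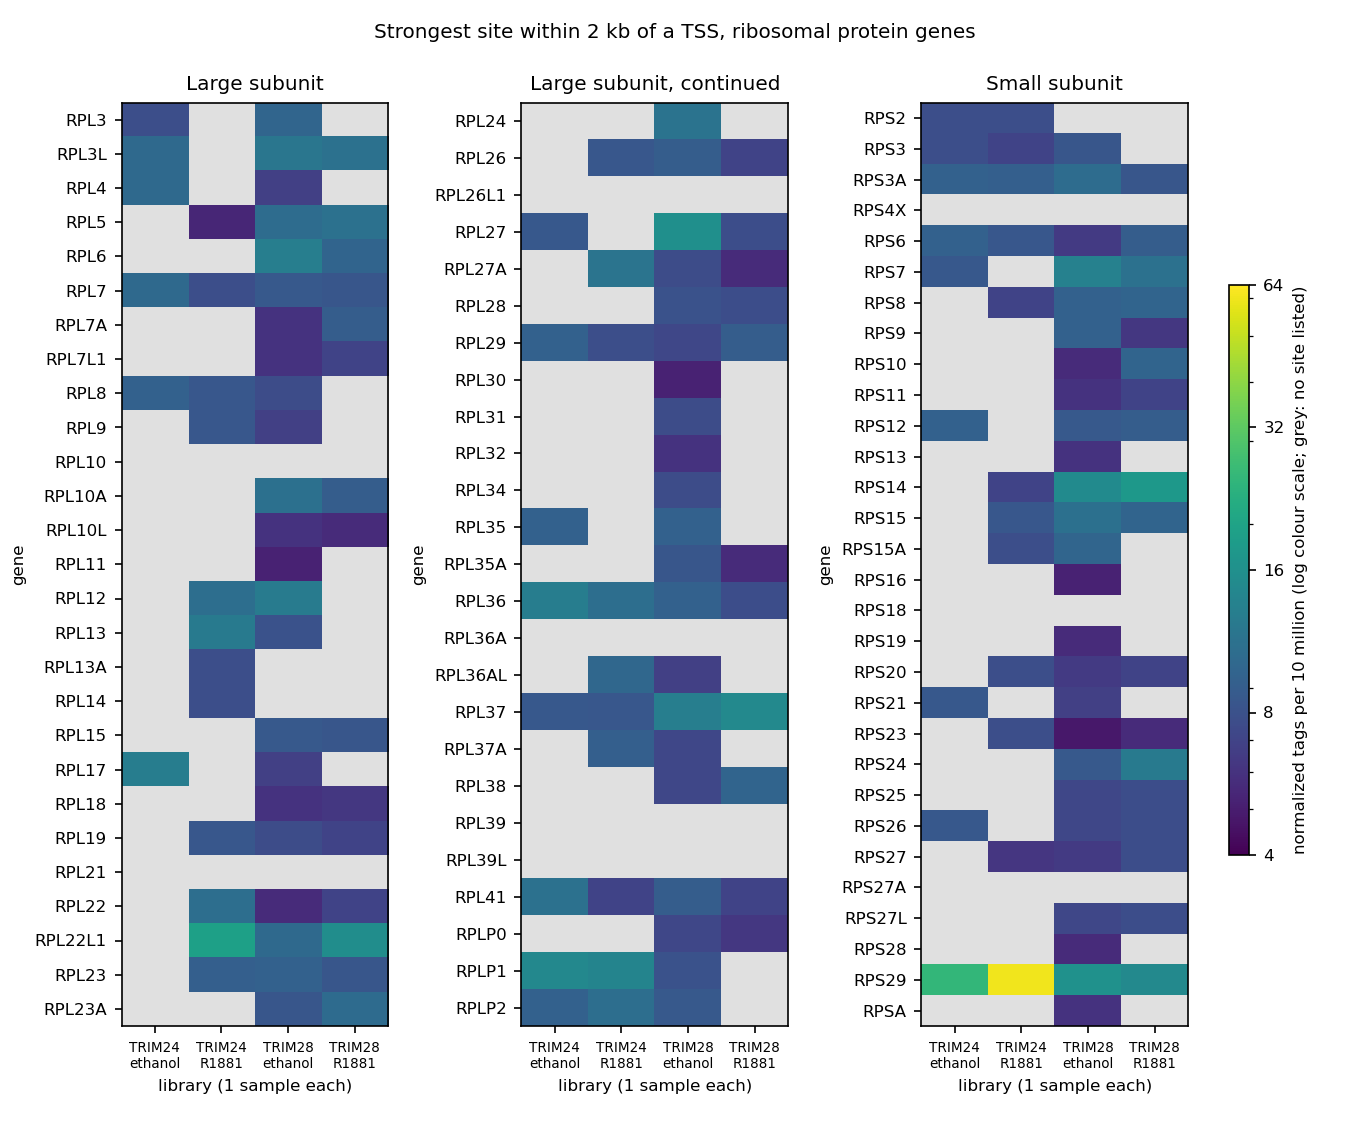
Normalized tags of the strongest promoter site (colour, log scale from 4 to 64) of 82 ribosomal protein genes (rows, in 3 panels by subunit) in the 4 libraries (columns). Grey cells have no listed site. RPS29 reached 60.5 with R1881 in TRIM24, the filled cells of the other genes lie between 4.8 and 19.4, and 9 rows are grey throughout.

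By contrast, 10 genes had no site in any library (11.8%, against 39.5% of all protein-coding genes). They include RPL10, RPL26L1, RPL36A, RPL39, RPL39L, RPS4X, RPS18 and RPS27A. RPL10, RPL36A, RPL39 and RPS4X are the 4 ribosomal protein genes on the X chromosome, which was noticed after the values were seen. The X chromosome as a whole had few sites: with R1881, a TRIM24 site was listed for 1.96% of its 869 protein-coding genes against 19.2% of the 19229 autosomal ones, and a TRIM28 site for 5.18% against 39%. With ethanol the shares were 0.69% against 11.1% for TRIM24 and 12.9% against 58.5% for TRIM28. On autosomes 75 of 81 ribosomal protein genes had a site in some library (92.6%, against 62.5%). RPL26L1 and RPL39L are paralogues of RPL26 and RPL39. RPS27A encodes ubiquitin fused to a ribosomal protein. FAU, a ribosomal protein gene under another name, had no site in any library.

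Where present, the sites held few tags and most lay within 500 bp of a TSS. The strongest site of a ribosomal protein gene had a median of 9.5 normalized tags for TRIM24 with ethanol, the same as over all protein-coding genes with a site. The medians were 8.5 and 8.5 for TRIM24 with R1881, 7.6 and 7.2 for TRIM28 with ethanol, and 8.05 and 7.7 for TRIM28 with R1881. The higher share of ribosomal protein genes with a site was thus not matched by a clear excess in strength. The centre of the strongest site lay a median of 97.5 bp from the nearest TSS of the gene in both TRIM24 libraries, against 106 and 120 bp over all genes. For TRIM28 the medians were 87 and 125.5 bp, against 131 and 144 bp. Where only the canonical TSS of each gene was used, each median of the ribosomal protein genes was longer. It was then 111 and 148 bp for TRIM24 and 137 and 153 bp for TRIM28, with ethanol and R1881. No such median is given over all genes, and the part of TSS number in these distances was not tested. A position within 500 bp of a TSS was seen for 34 of 36 TRIM24 sites with R1881 (94.4%, against 83.1%) and for 66 of 72 TRIM28 sites with ethanol (91.7%, against 79%). It was seen for 41 of 46 TRIM28 sites with R1881 (89.1%, against 75.4%) and, with the order turned, for 20 of 24 TRIM24 sites with ethanol (83.3%, against 85.4%). TRIM28 sites with R1881 were upstream of the TSS in 34 of 46 genes (73.9%, against 58.1%), and TRIM24 sites with R1881 in 18 of 36 (50%, against 53.3%). With ethanol the upstream shares were 55.6% for TRIM28 (against 55.8%) and 58.3% for TRIM24 (against 59.8%).

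**Figure D3:**
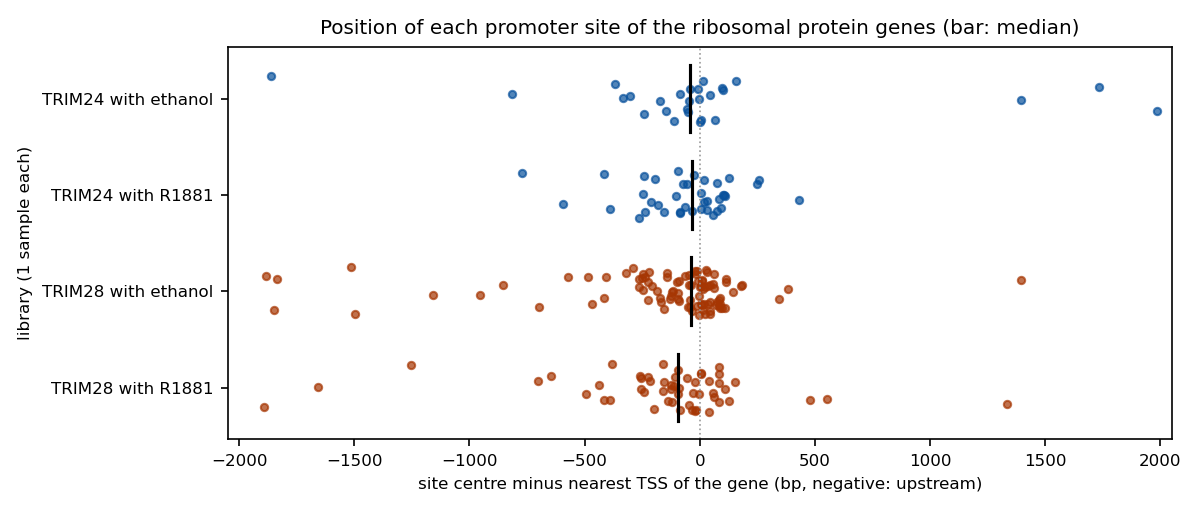
Distance in bp (horizontal axis, negative upstream) from the nearest TSS of the gene to the centre of each promoter site of the ribosomal protein genes, 27, 39, 95 and 54 points in the 4 libraries (vertical axis, top to bottom). The vertical bar is the median, and points are spread vertically for visibility only. Most points lie within 500 bp of the TSS in each library.

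Among single genes, RPS29, which encodes a small zinc-binding protein of the 40S subunit, had the strongest sites. Its values were 25.0 normalized tags for TRIM24 with ethanol (95% Poisson interval 16.7 to 35.9), 60.5 with R1881 (47.9 to 75.6), 16.3 for TRIM28 with ethanol (11.7 to 22.1) and 14.8 with R1881 (9.13 to 22.6). It was the highest ribosomal protein gene in both TRIM24 libraries and in TRIM28 with ethanol, and in TRIM24 with R1881 the site ranked 32 among 3461 promoter sites. The site with R1881 (chr14:50053265-50053421) has its centre 245 bp upstream of an RPS29 TSS. It also lies on a 7SL RNA sequence, the RNA polymerase III gene product that forms the core of the signal recognition particle. RefSeq places RN7SL1 within the span of RPS29, and chr14:50053298-50053594, on the strand opposite to RPS29, was identical to RN7SL2 at 293 of 297 bases (98.7%). Of the 157 bases of the TRIM24 site with R1881, 124 are inside this stretch, as are 155 of 155 for TRIM24 with ethanol, 129 of 165 for TRIM28 with ethanol and 123 of 157 for TRIM28 with R1881. RN7SL2 itself, elsewhere on chromosome 14, had sites of 26.7, 48.9, 26.2 and 16.2 normalized tags in the 4 libraries in the same order. RN7SL3, another 7SL gene, had a site in TRIM24 with R1881 only, at 10.1. Binding at the start of RPS29 and binding at the 7SL gene cannot be told apart in these lists. At its other TSS cluster, which faces LRR1, RPS29 had sites of 7.0 for TRIM24 with R1881 and of 7.2 and 7.0 for TRIM28 with ethanol and R1881, and none for TRIM24 with ethanol.

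The P-stalk proteins, which recruit the translation factors that hydrolyse GTP, had different patterns of sites. RPLP1 had the next strongest TRIM24 site with ethanol at 14.6 normalized tags (8.53 to 23.5) and 14.0 with R1881 (8.28 to 22.1), both within 41 bp of a TSS. Its TRIM28 site had 8.0 with ethanol, and none was listed with R1881. RPLP2 had 9.5 and 10.9 for TRIM24 and 8.7 for TRIM28 with ethanol, at sites nearer to the TSS of its divergent neighbour PIDD1. RPLP0 had TRIM28 sites only, at 7.2 with ethanol and 6.3 with R1881.

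RPL22L1, a paralogue of the RNA-binding protein RPL22, had the next strongest TRIM24 site with R1881 after RPS29. Its TRIM24 site had 19.4 normalized tags with R1881 and none was listed with ethanol, while TRIM28 had 10.3 with ethanol and 15.5 with R1881. These R1881 sites of both proteins (chr3:170585463-170585619 for TRIM24) overlapped, 429 and 477 bp downstream of an alternative TSS inside the gene. The TRIM28 site with ethanol was another site, 94 bp upstream of a TSS, so its value and 15.5 are not from the same place. TRIM28 with R1881 also had a weaker site of 9.8, 22 bp upstream of a TSS. RPL22 itself had 10.9 for TRIM24 with R1881 and 5.6 and 7.0 for TRIM28. RPL13, RPL27A, RPL12, RPL36 and RPL36AL were among the other leading genes of TRIM24 with R1881, at 12.4, 11.6, 10.9, 10.9 and 10.1. The Poisson intervals of these genes overlap, so their order is not resolved. The site of RPL12 was nearer to a TSS of LRSAM1 and that of RPL36AL nearer to a TSS of MGAT2.

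RPS14, a small-subunit protein whose reduced dosage is known from the anaemia of the 5q deletion syndrome, had the highest TRIM28 value with R1881. It had 15.1 normalized tags with ethanol and 17.6 with R1881, at 466 and 439 bp upstream of a TSS. TRIM24 had 7.0 at RPS14 with R1881 and no site with ethanol. RPL37 had TRIM28 values of 13.1 and 14.8, beside TRIM24 values of 8.6 and 8.5. RPL27 had 15.9 for TRIM28 with ethanol and 7.7 with R1881, and 8.6 for TRIM24 with ethanol only. RPS7 (13.5 and 11.2), RPL6 (13.1 and 9.8) and RPS24 (8.7 and 12.6) also had leading TRIM28 sites in ethanol and R1881. RPS7, RPL11 and RPL5 are known for binding MDM2 when ribosome assembly fails. RPL5 had 5.4 for TRIM24 with R1881 and 10.7 and 11.2 for TRIM28, whereas RPL11 had only a TRIM28 site of 5.2 with ethanol. For RPL5 and RPL6 the TRIM28 values with ethanol and R1881 are from sites that do not overlap.

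RPS6, the substrate of the S6 kinases, had a site in every library. Its values were 9.5 and 8.5 normalized tags for TRIM24 with ethanol and R1881 and 6.4 and 9.1 for TRIM28. RPS3 had 7.8, 7.0 and 8.4 in TRIM24 with ethanol, TRIM24 with R1881 and TRIM28 with ethanol. RPL3, next to the peptidyl transferase centre, had 7.8 for TRIM24 and 9.9 for TRIM28, both with ethanol. RPS19, mutated in Diamond-Blackfan anaemia, and RPSA had TRIM28 sites with ethanol only, at 5.6 and 6.0. Of the other paralogue pairs, RPL7L1, RPL10L and RPS27L had TRIM28 sites only. RPL3L, a muscle paralogue of RPL3, had 10.3 for TRIM24 with ethanol and 11.9 and 11.2 for TRIM28, at sites at least 1835 bp from its own TSS and within 97 bp of a TSS of NDUFB10.

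With R1881 the pairing of the proteins at these promoters was looser than with ethanol. With ethanol, 23 of the 24 genes with a TRIM24 site also had a TRIM28 site (95.8%, against 95.6% over all genes with a TRIM24 site), and at 18 the sites overlapped by at least 1 bp. With R1881, 23 of 36 had both (63.9%, against 73.3%) and 12 had overlapping sites. As a share of the 85 genes, overlapping sites were found at 21.2% with ethanol (7.52% of all protein-coding genes) and at 14.1% with R1881 (8.55%). As a share of the genes with a TRIM24 site this is 75% and 33.3%, against 70.8% and 46.3% over all genes. RPL29, RPL36, RPS6 and RPS29 were among those with overlapping sites in both treatments. RPS23 and RPS29 had TRIM24 and TRIM28 site centres 6 and 1 bp apart with R1881. At the 11 genes with both proteins and no overlap, the centres of the strongest sites were a median of 296 bp apart, with a smallest gap of 215 bp. The TRIM28 library with R1881 held fewer tags than that with ethanol, and the part of this in the looser pairing was not tested.

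Between treatments, the number of genes with a TRIM24 site was higher with R1881 and the number with a TRIM28 site lower. A TRIM24 site was found in both treatments at 14 genes (16.5%, against 5.88%), with ethanol only at 10 (11.8%, against 4.75%) and with R1881 only at 22 (25.9%, against 12.6%). A TRIM28 site was found in both treatments at 46 genes (54.1%, against 34.6%), with ethanol only at 26 (30.6%, against 21.9%) and with R1881 only at 0 (0%, against 2.87%). The log2 ratio of the counts was 0.58 for TRIM24 and -0.65 for TRIM28, beside 0.80 and -0.59 over all protein-coding genes. For TRIM24 this direction depends on the length of the lists. With the strongest 5232 sites of each list it was 24 genes with ethanol and 14 with R1881, beside 10.6% and 9.08% of all protein-coding genes. After scaling to the shallowest library the counts were 24 and 29 for TRIM24 and 34 and 23 for TRIM28. The shares of all protein-coding genes were then 10.1% and 14.8%, and 23.3% and 16.6%.

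Genes with a site in both treatments were compared by their strongest site in each, and the sites of both treatments overlapped at 6 of 14 genes for TRIM24 and 31 of 46 for TRIM28, so most TRIM24 ratios set different sites side by side. The median log2 ratio of R1881 to ethanol normalized tags was -0.11 for TRIM24 (14 genes, order-statistic interval -0.29 to 0.00) and 0.06 for TRIM28 (46 genes, -0.10 to 0.22), beside -0.05 and 0.00 over all genes. RPS29 was the only TRIM24 gene whose exact interval of the ratio left out 1, at 2.42 (1.56 to 3.85), from 29 tags with ethanol and 78 with R1881, on the 7SL sequence described above. RPL27 was the only such TRIM28 gene, at 0.486 (0.225 to 0.965), from 40 and 11 tags. These intervals are not adjusted for the number of genes, and over all protein-coding genes 45 lay above and 12 below 1 of 1181 for TRIM24, and 45 and 53 of 6962 for TRIM28. After RPS29 the highest TRIM24 ratio was 1.15 for RPLP2 (0.484 to 2.79), the highest TRIM28 ratio was 1.77 for RPS10 (0.781 to 4), and the lowest TRIM24 ratio was 0.624 for RPL41 (0.235 to 1.58). A ratio of this size could not be separated from 1 at these tag counts. For some genes the strongest site was listed at a different place in each treatment. At RPL41 the strongest TRIM24 site was 1395 bp downstream of a TSS with ethanol (74 bp from a TSS of ESYT1) and 33 bp upstream with R1881. These sites had 13 and 9 tags, near the caller's minimum of 9, so an unlisted position may lie just below detection. TRIM28 with ethanol had RPL41 sites both 20 bp upstream (8.0) and 1394 bp downstream (9.1).

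**Figure D4:**
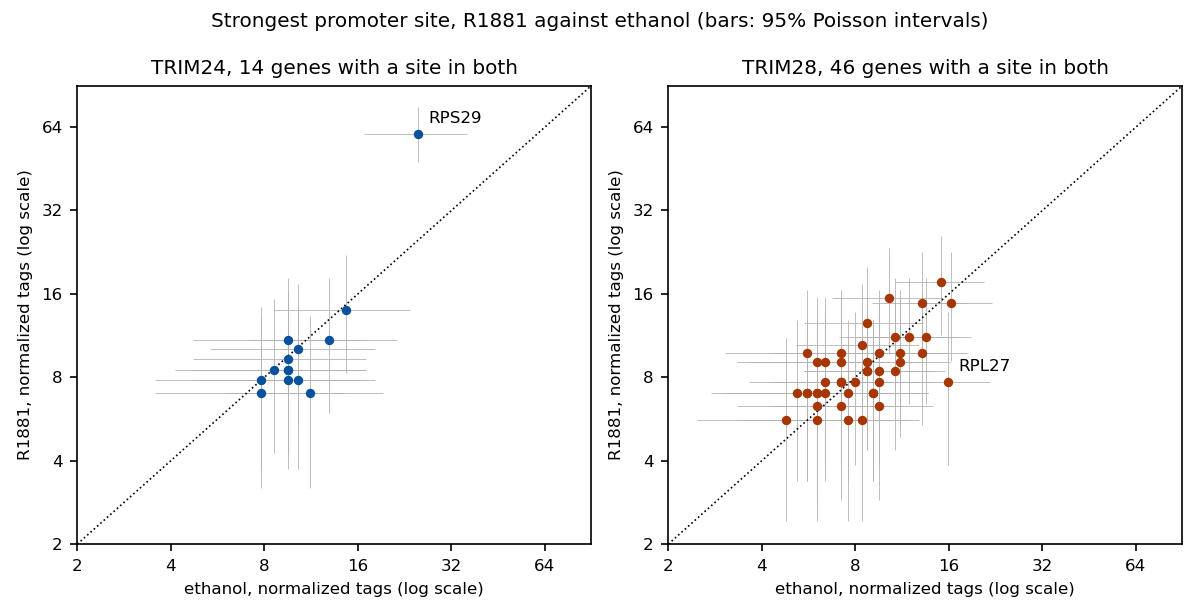
Normalized tags of the strongest promoter site with R1881 (vertical axis, log scale) against ethanol (horizontal axis, log scale) for the 14 genes with a TRIM24 site and the 46 genes with a TRIM28 site in both treatments. Bars are 95% Poisson intervals and the dotted line marks equal values. RPS29 (TRIM24) and RPL27 (TRIM28) are labelled, and the bars of most other genes reach the line.

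The 300 bases of each promoter (250 before the canonical TSS, 50 from it on) were searched on both strands for 7 short motifs. The ETS core CCGGAAG was present in 30 of 85 ribosomal protein genes (35.3%, against 14.1% of all promoters) and the YY1 core AAGATGG in 15 (17.6%, against 6.43%). The SP1 box GGGCGG was found in 60% against 61.5%, the TATA box TATAAA in 9.41% against 9.65% and the NRF1 motif GCGCATGCG in 4.71% against 2.72%. The forkhead core TAAACA was found in 2 (2.35%, against 8.22%) and the half-site of the androgen response element, AGAACA, in 11 (12.9%, against 10.7%). Genes with and without a TRIM24 site in R1881 were alike for ETS (36.1% and 34.7%) and YY1 (16.7% and 18.4%). The half-site was in 3 of 36 with a site (8.33%) and 8 of 49 without (16.3%). Over all protein-coding genes with such a site the shares were 21.2% for ETS, 8.39% for YY1 and 7.2% for the half-site. Median GC content was 60% for ribosomal protein promoters and 63.7% for all promoters.

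Outside the promoter windows few sites lay in these short genes, whose median length was 5548 bp against 27256 bp. A site in the rest of the gene was listed for 0, 1, 9 and 7 genes in the 4 libraries in the order used above, against 4.73%, 9.35%, 37.5% and 29% of all protein-coding genes. Within 29 ribosomal protein genes lie 60 small nucleolar RNA genes, a class that mostly guides the modification of ribosomal RNA. TRIM24 sites were found at 11 of these 29 hosts with ethanol (37.9%) and 14 with R1881 (48.3%). They were found at 13 (23.2%) and 22 (39.3%) of the 56 other genes, against 10.6% and 18.5% of all protein-coding genes. TRIM28 sites were found at 24 (82.8%) and 13 (44.8%) hosts and at 48 (85.7%) and 33 (58.9%) others, against 56.5% and 37.5%. The difference between hosts and others was not tested. The processed pseudogenes of ribosomal protein genes, copies without their own promoter, overlapped a site in 0, 3, 20 and 16 of 1518 cases (0%, 0.198%, 1.32% and 1.05%). Other processed pseudogenes did so in 0.261%, 0.344%, 1.54% and 1.04% of 8431 cases. A zero of 1518 allows a share of up to 0.252% (Wilson interval).

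Neighbouring genes share some of these promoter sites. Of the strongest sites, 10, 9, 25 and 14 in the 4 libraries had the TSS of another protein-coding gene within 2 kb, and 5, 3, 11 and 8 were nearer to that TSS than to the ribosomal protein gene. No site was shared between members of the set.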

How the data were processed

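TRIM24 and TRIM28 ChIP-seq of 4 LNCaP libraries (1 per condition, grouped by their labels) was analysed. Per the submitters' processing notes, reads were aligned to hg19 with BWA 0.6.1 and sites were called with HOMER 4.1. The deposited lists give per site a signal (the normalized tag count per 10000000 tags), a focus ratio (a fraction), a score, a fold over the surrounding 10 kb, a clonal fold (a ratio) and an unadjusted p-value. The file headers record a rate of false discoveries of 0.001, a 4-fold excess over the surrounding 10 kb, a Poisson p of 1e-04 and no input library. Methods of the study were used to read the design only.

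Multiplying normalized tags by the library total gave whole tags at 100% of sites within rounding, and these gave the Poisson intervals. Site centres were assigned to genes within 2 kb of any TSS of GENCODE release 44 on GRCh37 (94.7% or more of the sites of each list lie on chromosomes 1 to 22 and X, none past a chromosome end). Ratios have exact Clopper-Pearson intervals, and shares have Wilson intervals. Assignment and overlap were tested on simulated data against a direct count. Scripts ran in Python 3.11.15 with pandas 2.3.3, numpy 2.4.6, matplotlib 3.10.9 and scipy 1.17.1. The genes, lists and alternatives were chosen with earlier results of these data known. Genes named are the strongest of each library, those in all or no libraries, fixed subunits and paralogue pairs, and those with extreme ratios. Some members are not reported here by name.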

Additional observations from a re-analysis of the deposited data

Results flagged for a closer look

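With R1881, more ribosomal protein genes had a TRIM24 site than with ethanol and fewer had a TRIM28 site. The log2 ratios of the gene counts, R1881 over ethanol, were 0.58 (TRIM24) and -0.65 (TRIM28), beside 0.80 and -0.59 over all protein-coding genes, which have the same signs. The difference between them was not tested, since each condition has 1 library, and it is given here because the directions were opposite. With the strongest 5232 sites of each list the TRIM24 count was lower with R1881 as well (24 genes with ethanol, 14 with R1881), so the directions were not opposite for lists of equal length. At equal depth they were, with 24 and 29 genes for TRIM24 and 34 and 23 for TRIM28 in ethanol and R1881. The TRIM24 shares of all protein-coding genes were 10.6% and 9.08% for lists of equal length. At equal depth the shares of all genes were 10.1% and 14.8% for TRIM24 and 23.3% and 16.6% for TRIM28.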

How the results depend on the processing

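Of 144 recomputed values, 125 stayed within 1.5 times the reported count or within the interval of the reported median. In each of the 92 recomputed counts the share of ribosomal protein genes was above that of all protein-coding genes. These are recounts of the same sites, so they do not add up as separate support. The share of all protein-coding genes is given in brackets below, and for the lowest counts of 85 the margin is small. With the strongest 5232 sites of each list, genes with a TRIM24 site in R1881 numbered 14 (all genes 9.08%). Those with a TRIM28 site numbered 11 in ethanol (all genes 6.11%) and 8 in R1881 (4.44%). Overlapping sites then remained at 5 genes with ethanol (all genes 1.97%) and 2 with R1881 (1.39%). Sites in both treatments remained at 6 for TRIM24 (all genes 3.82%) and 5 for TRIM28 (2.32%). With tags scaled to the shallowest library, TRIM28 sites numbered 34 with ethanol (all genes 23.3%) and 23 with R1881 (16.6%). Overlapping sites with R1881 numbered 5 (all genes 4.28%), and TRIM28 sites in both treatments 18 (10.6%). Among sites of 8-fold or higher excess over the surrounding 10 kb, TRIM28 sites numbered 31 with ethanol (all genes 22.5%) and 27 with R1881 (24.4%). Overlapping sites then numbered 11 with ethanol (all genes 3.79%) and 6 with R1881 (4.67%). Sites in both treatments numbered 9 for TRIM24 (all genes 4.05%) and 16 for TRIM28 (13%). Counting genes with both proteins whether or not the sites overlap gave 23 with R1881 (all genes 13.5%). Each of these settings lists fewer sites or widens the definition, and no other cause was tested. The median distance of TRIM28 sites with ethanol became 137 bp with canonical TSSs only. A setting without the sites on the 7SL sequence at RPS29 was chosen after seeing the data. TRIM24 sites with ethanol then numbered 23 (all genes 10.6%) and TRIM24 sites in both treatments 13 (5.87%). No paired analysis was possible because each condition has 1 library and no test was made. Tags of 7 to 78 per TRIM24 site set the precision of single genes.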
